A study of Mus musculus with 4 samples.

Results

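The genes described here encode Toll-like receptors, NOD-like receptors and the cytosolic sensors of RNA and DNA, together with the co-receptors, adaptors, kinases and caspases that work with them. They are a list of 46 gene symbols chosen by name and function, with earlier results of these data known. All 46 were found among the 24358 gene symbols of the deposited table. Each of the 46 had at least 1 tested transcript (63 tested of 72), and 13039 genes of the table had one. Expression was measured by mRNA sequencing in cells sorted from mouse dermal wound beds on day 5. One population was CD301b macrophages, named for a C-type lectin of the cell surface, and the other was immune cells that lacked the macrophage protein F4/80. All cells came from 7-week-old male mice of strain C57/Bl6 with no genetic change or treatment beyond the wound named in the labels. Each population had 2 libraries. No uninjured skin and no wound macrophage without CD301b was among the samples, so traits of the CD301b subset cannot be told apart from those of wound macrophages at large.

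Innate sensors recognise molecules that microbes share or that damaged cells release. Toll-like receptors (TLRs) at the cell surface bind bacterial lipids and proteins, and most of those in endosomes bind nucleic acids. Each receptor signals through the adaptor MyD88, the adaptor TRIF or both. MyD88 acts with kinases of the IRAK family, and the signals reach NF-kB or interferon genes. NOD1 and NOD2 sense fragments of bacterial cell wall and signal through the kinase RIPK2. Inflammasome sensors such as NLRP3, NLRC4 and AIM2 gather the adaptor ASC and caspase 1, which cuts the precursors of interleukin 1 beta and interleukin 18, and RIG-I-like receptors report viral RNA through the adaptor MAVS. In wounds, macrophages and other phagocytes use these systems to read bacteria and cell debris.

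The deposited table holds 1 FPKM per transcript and population (fragments per kilobase of transcript relative to all mapped fragments, a level corrected for transcript length). Values of single libraries were not given, so no error accompanies any FPKM here, and the depth of each library is unknown. Pairs of values joined by "against" give CD301b macrophages before F4/80-negative cells, and a gene's FPKM is the sum of its transcripts. A gene counts as higher or lower if 1 or more of its transcripts reached an adjusted p of 0.05, no transcript did so in the opposite direction and the sum agreed in sign. The p-values are those of Cuffdiff in the authors' deposited table, with Benjamini-Hochberg adjustment over all 16921 tested transcripts. Their smallest adjusted value is 0.000999. The deposited p-values are unadjusted, and each adjusted p given below was computed from them. The labels do not say whether libraries came from separate animals, so these p-values may measure technical spread. The sort was visible in the transcript of F4/80, with Adgre1 at 557 against 151 FPKM, but not in that of CD301b. Mgl2, which encodes CD301b, was called lower at 49.2 against 103 FPKM (adjusted p = 0.000999 in the authors' deposited Cuffdiff table).

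Most Toll-like receptors and all RIG-I-like receptors were higher in CD301b macrophages. Of 12 Toll-like receptors 9 were higher and none was lower, among them Tlr8, Tlr7 and Tlr1 at more than 3 times the level of F4/80-negative cells. NOD2 and its kinase RIPK2 went the other way and were lower, as was the kinase IRAK2. Most adaptors and most inflammasome parts were not past the threshold. Over all 46 genes, 21 were higher (45.7%) and 3 were lower (6.52%). Over all 13039 tested genes, 11.0% were higher and 6.20% were lower, so the lower share of the 46 was near that background. At an adjusted p of at most 0.01 in the authors' deposited Cuffdiff table, 13 of the 46 were higher and 2 lower, beside 6.50% higher and 3.54% lower over all tested genes. The median log2 fold of the 46 genes was 0.38 on the log2(FPKM + 1) scale, beside 0.05 over all tested genes.

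**Figure D1:**
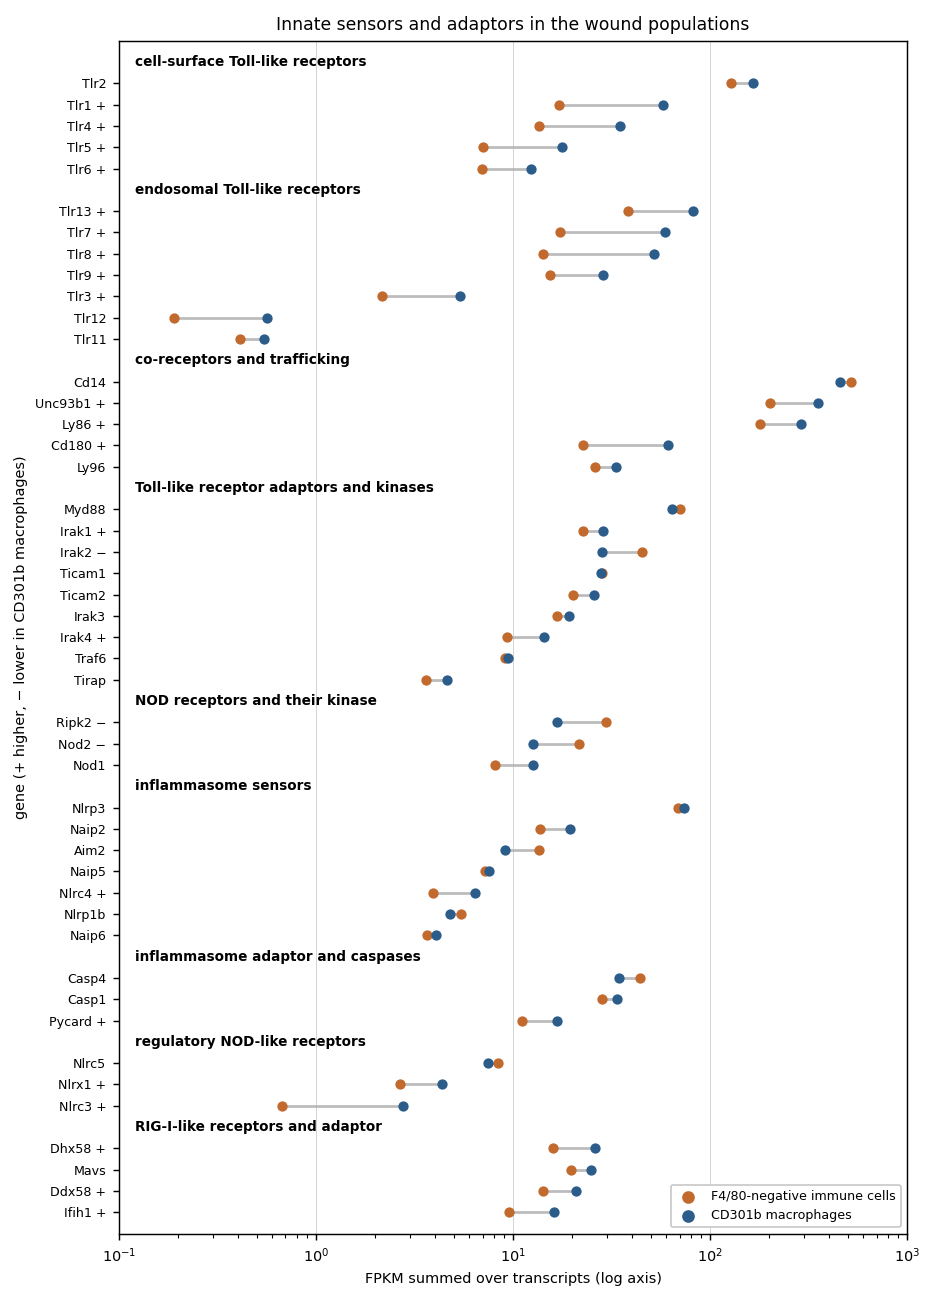
Summed FPKM (log axis) of each of the 46 genes in F4/80-negative immune cells (orange) and CD301b macrophages (blue), grouped by role, with + or − after a gene that was called higher or lower in CD301b macrophages. All 12 Toll-like receptor genes have the blue point to the right of the orange one, while Nod2, Ripk2 and Irak2 are reversed.

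The sequences before the start sites of 4 genes are shown because these genes had the largest called ratios in each direction at 5 FPKM or more and an entry in the promoter table (RefSeq, GRCm38.p6). Each is the 250 bases before the annotated start site, written 5′ to 3′ on the gene's strand. Capitals mark GAGGAA, the core bound by the myeloid factor PU.1, or its complement. The window of Tlr8 lies at chrX:167264330-167264579 on the minus strand, and its start site is 541 bases from the start of the transcript model in the deposited table.
Tlr8: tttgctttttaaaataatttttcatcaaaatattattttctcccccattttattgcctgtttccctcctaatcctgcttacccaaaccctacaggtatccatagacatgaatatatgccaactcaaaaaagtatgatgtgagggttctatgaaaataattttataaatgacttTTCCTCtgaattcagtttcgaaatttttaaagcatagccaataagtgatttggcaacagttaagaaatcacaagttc
The window of Tlr1 lies at chr5:64933559-64933808 on the minus strand and belongs to the less abundant of its 2 transcripts. Another window of Tlr1 in the promoter table, chr5:64932700-64932949, is not shown. Its start site lies within exon 1 of the more abundant transcript.
Tlr1: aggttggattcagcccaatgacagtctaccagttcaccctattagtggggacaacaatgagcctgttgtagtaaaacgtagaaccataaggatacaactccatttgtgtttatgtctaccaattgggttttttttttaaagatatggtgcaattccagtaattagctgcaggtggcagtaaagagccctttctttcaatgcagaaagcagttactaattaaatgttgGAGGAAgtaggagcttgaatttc
The window of Nod2 lies at chr8:88647097-88647346 on the plus strand.
Nod2: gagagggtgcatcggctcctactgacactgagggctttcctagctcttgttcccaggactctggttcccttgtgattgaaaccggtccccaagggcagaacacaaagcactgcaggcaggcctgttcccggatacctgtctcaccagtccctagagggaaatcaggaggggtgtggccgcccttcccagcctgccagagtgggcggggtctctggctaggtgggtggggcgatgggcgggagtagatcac
The window of Irak2 lies at chr6:113638217-113638466 on the plus strand.
Irak2: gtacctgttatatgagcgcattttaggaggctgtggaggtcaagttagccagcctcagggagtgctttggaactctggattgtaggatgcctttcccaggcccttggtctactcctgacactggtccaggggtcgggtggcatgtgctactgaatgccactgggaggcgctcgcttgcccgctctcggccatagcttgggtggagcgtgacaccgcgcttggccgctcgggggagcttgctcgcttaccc
Tlr8 held the core 77 bases and Tlr1 23 bases before the start site. The other window of Tlr1 did not hold it, and neither Nod2 nor Irak2 held it in these windows. Of the 46 genes 37 had an entry, and 13 of these (35.1%) held GAGGAA on either strand in at least 1 window. Among the 17 higher genes with an entry 6 held it, and among the 2 lower ones none did. The rest of the 13 were genes called in neither direction, among them Nlrp3 and Aim2, so the core was not confined to higher genes. Among the 27025 genes with an entry, 25.9% held it. A match describes the letters only and says nothing of binding.

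Among the cell-surface receptors, 4 of 5 were higher. Tlr1, which pairs with TLR2 to bind triacylated lipopeptides (chromosome 5, 64924680 to 64933600, GRCm38), was 58.0 against 17.2 FPKM, a 3.37-fold difference. Tlr4, the receptor for lipopolysaccharide (chromosome 4, 66827551 to 66846581), was 2.59-fold higher at 35.0 against 13.5 FPKM. Tlr5, the flagellin receptor (chromosome 1, 182954752 to 182976044), was 2.51-fold higher at 17.8 against 7.07 FPKM. Ratios of the 5 cell-surface receptors ran from 1.29 (Tlr2) to 3.37 (Tlr1). Tlr6, which pairs with TLR2 for diacylated lipopeptides, was 1.78-fold higher at 12.3 against 6.93 FPKM. Each of these had an adjusted p of 0.000999 in the authors' deposited Cuffdiff table. Tlr2 itself, the shared partner, was the most abundant Toll-like receptor of both populations and was not past the threshold at 165 against 127 FPKM (adjusted p = 0.222 in the authors' deposited Cuffdiff table). Its level was 7.39 times that of Tlr1 in F4/80-negative cells and 2.84 times in CD301b macrophages. Tlr1 and Tlr6 are neighbours of similar sequence: 15.3% of the 50-base words of the Tlr1 transcript also occur in Tlr6, so part of their reads cannot be assigned with certainty.

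Of 7 endosomal receptors 5 were higher, and these 5 are the receptors for nucleic acids. The summed level of all 7 was 2.58-fold higher (227 against 88.2 FPKM). The sum of the cell-surface receptors was 1.67-fold higher with Tlr2 (288 against 172 FPKM) and 2.75-fold without it (123 against 44.7 FPKM). The difference between these receptor groups was not tested. Tlr8, an RNA sensor of the endosome (chromosome X, 167241123 to 167264329), had the largest ratio of all Toll-like receptors past the threshold, at 52.0 against 14.3 FPKM, a 3.64-fold difference. Its neighbour Tlr7, which binds single-stranded RNA (chromosome X, 167303380 to 167330574), was 3.40-fold higher at 59.0 against 17.3 FPKM. Tlr13, a mouse receptor for bacterial ribosomal RNA that humans lack (chromosome X, 106143275 to 106160493), was the second most abundant Toll-like receptor in both populations, at 81.5 against 38.5 FPKM. Its ratio was 2.12. Tlr9, the receptor for unmethylated CpG DNA, was 1.85-fold higher at 28.5 against 15.4 FPKM. Tlr3, which binds double-stranded RNA, was 2.51-fold higher at 5.40 against 2.16 FPKM. All 5 had an adjusted p of 0.000999 in the authors' deposited Cuffdiff table. Tlr11 and Tlr12, which sense a profilin of protozoan parasites, were under 1 FPKM in both populations. Tlr12 was 0.567 against 0.191 FPKM and Tlr11 0.542 against 0.409 FPKM, and neither was past the threshold.

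Because FPKM is scaled to transcript length, levels of different receptors can be set side by side. In F4/80-negative cells Tlr2 made up 48.9% of the summed FPKM of the 12 Toll-like receptors and in CD301b macrophages 31.9%. The shares of Tlr7 (6.66% and 11.4%), Tlr8 (5.49% and 10.1%) and Tlr1 (6.61% and 11.3%) were larger in the macrophages. The first 4 places, in the order Tlr2, Tlr13, Tlr7 and Tlr1, were the same in both populations. Tlr8 had rank 6 in F4/80-negative cells and rank 5 in the macrophages, while Tlr9 stood above it in the former and below it in the latter. With 1 value per population, neighbours in these orders could not be compared with any spread.

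**Figure D2:**
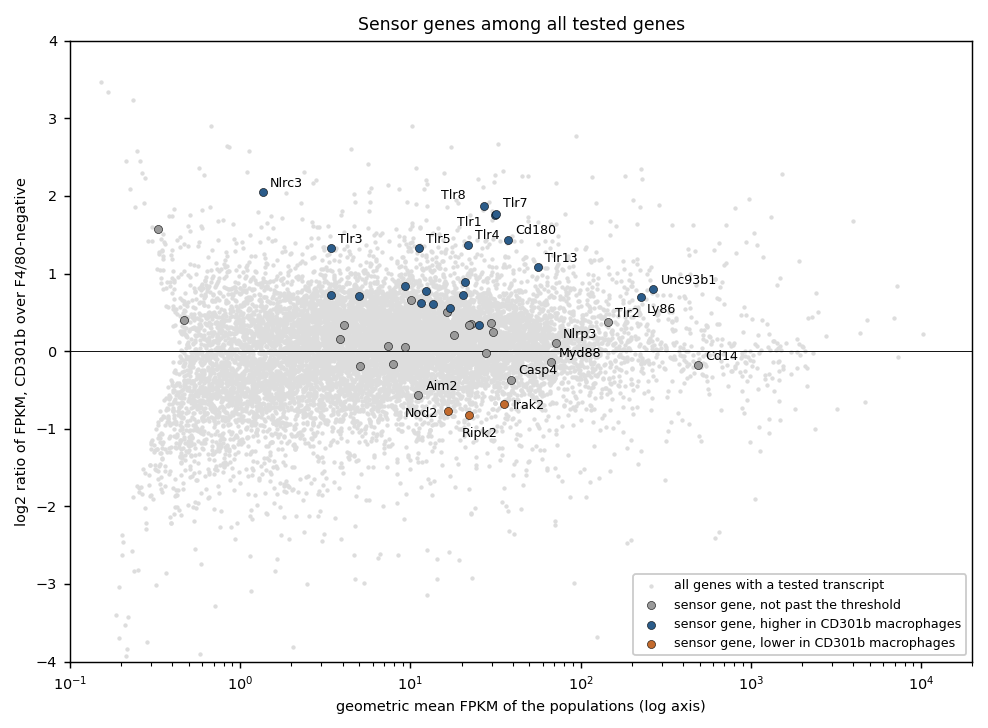
Log2 ratio of FPKM (CD301b macrophages over F4/80-negative cells, no pseudocount) against the geometric mean FPKM of the populations (log axis), for genes with a tested transcript (grey) and the 46 sensor genes (coloured by call). The plot leaves out 6 genes beyond its limits and 83 genes listed at 0 in a population. Tlr7, Tlr8 and Tlr1 lie at log2 ratios between 1 and 2, and the 3 lower genes lie between log2 ratios of 0 and -1.

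Of 5 co-receptors and trafficking genes 3 were higher. Cd180, which encodes RP105, a relative of TLR4 on macrophages and B cells (chromosome 13, 102693547 to 102706631), was 2.71-fold higher at 61.5 against 22.7 FPKM, close to the ratio of Tlr4. The level of Cd180 relative to Tlr4 was therefore much the same, 1.75 in CD301b macrophages and 1.68 in F4/80-negative cells. Ly86, which encodes MD-1, the secreted partner of RP105, was 1.62-fold higher at 290 against 179 FPKM (adjusted p = 0.0093 in the authors' deposited Cuffdiff table). The partners of TLR4 were not past the threshold. Ly96, which encodes MD-2, was 33.5 against 26.2 FPKM, and Cd14, the lipopolysaccharide carrier and the most abundant of the 46 genes in both populations, was 457 against 518 FPKM. Ly96 was thus 0.96 times the level of Tlr4 in CD301b macrophages and 1.93 times in F4/80-negative cells, and Cd14 was 13.04 times and 38.3 times the level of Tlr4. Unc93b1, the chaperone that carries the endosomal receptors from the endoplasmic reticulum, was 352 against 203 FPKM, a 1.74-fold difference with an adjusted p of 0.0494 in the authors' deposited Cuffdiff table. Its call ended when the p-value was corrected for the number of its transcripts.

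Most adaptors and kinases of the Toll-like receptor pathway missed the threshold. Among 9 genes 2 were higher (22.2%), 1 was lower (11.1%) and 6 passed in neither direction, beside 11.0% higher and 6.20% lower over all tested genes. The summed level of the 9 was 222 against 226 FPKM. Myd88, the adaptor of most Toll-like receptors and the most abundant of the 9, was 64.3 against 70.8 FPKM. Ticam1, which encodes TRIF, was 27.8 against 28.2 FPKM. The bridging adaptors Ticam2 (25.7 against 20.2 FPKM) and Tirap (4.60 against 3.63 FPKM) and the ubiquitin ligase Traf6 (9.43 against 9.08 FPKM) were not past the threshold either. The same holds for Irak3, which encodes IRAK-M, an inhibitor of the pathway, at 19.3 against 16.7 FPKM. Ticam2 shares 19.0% of its 50-base words with Tmed7, a gene on the same strand, and 9.16% of those of Myd88 also lie in Acaa1a on the opposite strand.

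The kinases divided. Irak2, a member of the IRAK family that acts in the later phase of Toll-like receptor signalling (chromosome 6, 113638467 to 113695026), was 1.60-fold lower in the macrophages, with 28.1 against 44.9 FPKM. Both of its transcripts were lower, with 0.019 as the smaller adjusted p in the authors' deposited Cuffdiff table. The more abundant one (NM_001113553, 19.8 against 31.5 FPKM) lacks exon 3 of the other (NM_172161, 8.35 against 13.5 FPKM), an exon of 144 bases, and made up 70.3% of Irak2 in the macrophages and 70.0% in F4/80-negative cells. Irak4, the first kinase of the MyD88 complex, was 1.53-fold higher at 14.3 against 9.34 FPKM (adjusted p = 0.0352 in the authors' deposited Cuffdiff table). Of the exon bases of Irak4, 7.87% overlap exons of Twf1 on the opposite strand. Irak2 was 1.99 times the level of Irak1 in F4/80-negative cells and 0.98 times in the macrophages.

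Irak1 was called higher at 28.6 against 22.6 FPKM, a ratio of 1.27, through 1 of its 3 tested transcripts. NM_001177975 was 18.1 against 10.6 FPKM (adjusted p = 0.0309 in the authors' deposited Cuffdiff table), while NM_008363 was 9.30 against 10.5 FPKM and not past the threshold. Apart from the ends, the 2 models differ by 3 bases at the start of exon 5 (chrX:74022662-74022664, GRCm38, minus strand). The sequences around that junction, from the GENCODE transcripts, are shown because the call rests on telling them apart, and capitals mark the 3 bases.
NM_001177975: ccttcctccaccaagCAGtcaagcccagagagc
NM_008363: ccttcctccaccaagtcaagcccagagagc
Only reads that cross this junction, or reach the ends, distinguish the pair, and the call ended when the p-value was corrected for the number of transcripts or when a fold of 1.5 was asked for.

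**Figure D3:**
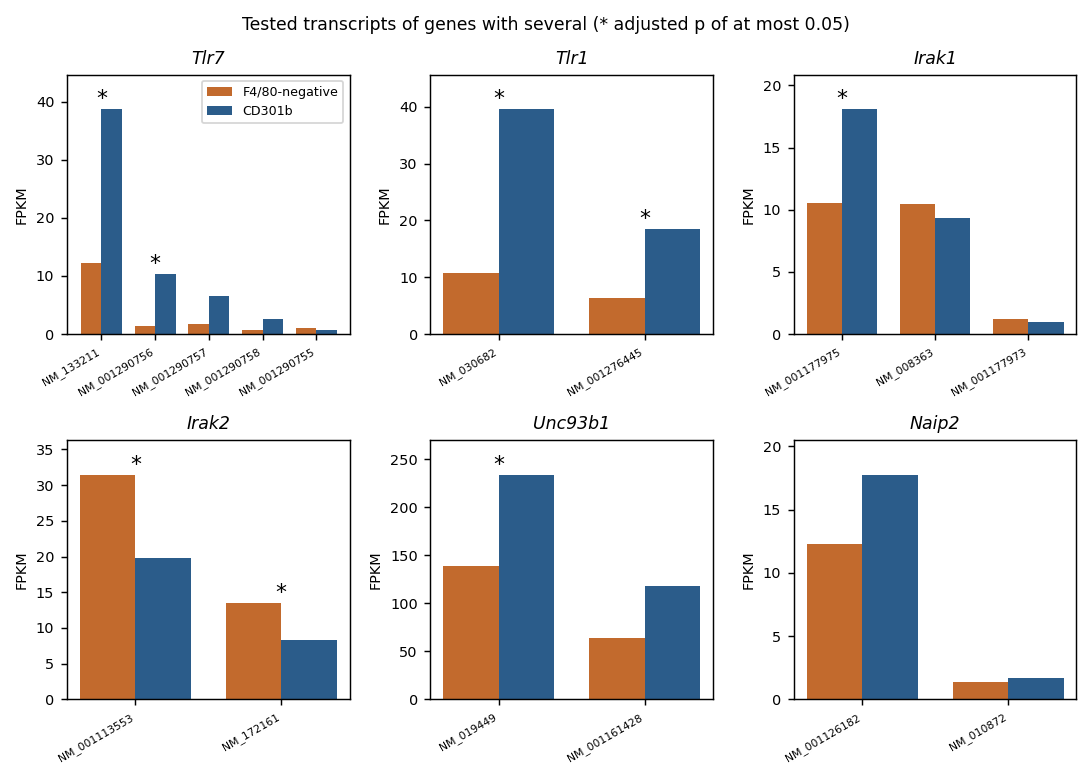
FPKM of each tested transcript of 6 genes with several transcripts, in F4/80-negative cells (orange bars) and CD301b macrophages (blue bars). A star marks an adjusted p of at most 0.05. Both Irak2 transcripts are lower in the macrophages, both Tlr1 transcripts are higher, and only 1 of the 3 tested Irak1 transcripts is past the threshold.

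Other genes with several transcripts gave like pictures. Tlr1 was higher in both transcripts (39.5 against 10.8 FPKM and 18.4 against 6.42 FPKM). Of the 5 Tlr7 transcripts 2 were past the threshold. The main one, NM_133211, was 38.7 against 12.3 FPKM, and NM_001290756 was 10.3 against 1.46 FPKM. The only Tlr7 transcript in the other direction, NM_001290755, stood at 0.780 against 1.08 FPKM and missed the threshold. Unc93b1 was past the threshold in its main transcript (234 against 139 FPKM), whereas the other missed it (118 against 63.9 FPKM, with an adjusted p of 0.279 in the authors' deposited Cuffdiff table). In none of the 46 genes did transcripts pass in opposite directions.

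The NOD pathway was the one role group with lower and no higher calls. Nod2, the sensor of muramyl dipeptide (chromosome 8, 88647315 to 88688474), was 1.71-fold lower in the macrophages, with 12.7 against 21.7 FPKM. Ripk2, the kinase that NOD1 and NOD2 both use (chromosome 4, 16122732 to 16163678), was 1.77-fold lower at 16.7 against 29.6 FPKM. The adjusted p was 0.0018 for each in the authors' deposited Cuffdiff table. Nod1, which senses another fragment of peptidoglycan, was 12.7 against 8.05 FPKM and lay just outside the threshold (adjusted p = 0.0539 in the authors' deposited Cuffdiff table). Nod2 was thus 2.70 times the level of Nod1 in F4/80-negative cells, and the pair were at the same 12.7 FPKM in CD301b macrophages. The level of Ripk2 relative to Nod2 was 1.36 in F4/80-negative cells and 1.32 in the macrophages.

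Inflammasome parts were mostly not past the threshold. Of 10 genes 2 were higher (20%) and none was lower, beside 11.0% higher and 6.20% lower over all tested genes. The summed level of the 10 was 210 against 200 FPKM. Nlrp3, the sensor of membrane damage and crystals and the most abundant of the 10, was 73.9 against 68.7 FPKM. Casp1 (33.5 against 28.2 FPKM) and Casp4, which encodes the caspase 11 of mouse that binds lipopolysaccharide in the cytosol (34.4 against 44.3 FPKM), were not past the threshold. The higher genes were Nlrc4 (6.41 against 3.92 FPKM, 1.64-fold) and Pycard, which encodes the adaptor ASC (16.8 against 11.0 FPKM, 1.52-fold), with adjusted p-values of 0.0182 and 0.0376 in the authors' deposited Cuffdiff table. Of the words of the longest GENCODE transcript of Pycard, 11.6% also lie in Gm45205 on the opposite strand. Aim2, the sensor of cytosolic DNA, was 9.15 against 13.5 FPKM, and its adjusted p of 0.0514, in the authors' deposited Cuffdiff table, was just outside the threshold. Aim2 counted as lower when p-values were corrected within each gene and then adjusted over the 13039 tested genes. With 1 transcript, its p-value was unchanged by the correction within the gene, so that call came from the adjustment over genes. Nlrp1b was 4.76 against 5.43 FPKM.

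The NAIP proteins bind flagellin and parts of the bacterial needle complex and hand them to NLRC4. Naip2 was 19.5 against 13.7 FPKM, Naip5 7.58 against 7.25 FPKM and Naip6 4.07 against 3.64 FPKM, and none was past the threshold. They are close copies on chromosome 13. Of the 50-base words of Naip5, 36.9% occur in other genes, as do 21.5% of those of Naip6 and 19.4% of those of Naip2, so their separate levels are uncertain.

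Among 3 NOD-like receptors with regulatory roles, Nlrc3, an inhibitor of several sensing pathways, was higher from a low level, at 2.77 against 0.670 FPKM. Its ratio of 4.14 was the largest of the 46 genes and rests on low values (adjusted p = 0.0151 in the authors' deposited Cuffdiff table). With 1 FPKM added to both values the ratio was 2.26, below those of Tlr8 (3.47), Tlr7 (3.27) and Tlr1 (3.24) on the same scale. Nlrx1, a mitochondrial member, was 1.65-fold higher at 4.38 against 2.65 FPKM. Of the words of its longest GENCODE transcript, 16.3% are shared with Gm10686 on the opposite strand, but that transcript was not the tested Nlrx1 transcript. Nlrc5, the activator of MHC class I genes, was 7.48 against 8.36 FPKM and not past the threshold.

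All 3 RIG-I-like receptors were higher in CD301b macrophages, and their adaptor was not past the threshold. Ifih1, which encodes MDA5 (chromosome 2, 62595618 to 62646255), was 1.71-fold higher at 16.2 against 9.49 FPKM. Dhx58, which encodes LGP2 (chromosome 11, 100694884 to 100704271), was 1.65-fold higher at 26.2 against 15.9 FPKM. Ddx58, which encodes RIG-I (chromosome 4, 40203777 to 40239825), was 1.47-fold higher at 20.8 against 14.1 FPKM. Their adjusted p-values were 0.0026, 0.0078 and 0.0499, in the authors' deposited Cuffdiff table, so the call of Ddx58 lay at the edge of the threshold. Mavs, the mitochondrial adaptor, was 24.8 against 19.6 FPKM.

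Further genes of these pathways were taken from 5 lists, beside 11.0% higher and 6.20% lower over all tested genes. Of 12 tested accessory and inhibitory genes of Toll-like receptors, 1 was higher and 1 was lower (8.33% each), near that background. Cnpy3, a chaperone of Toll-like receptors, was 36.2 against 23.9 FPKM, and Sigirr, an inhibitory receptor of the pathway, was 1.14 against 2.45 FPKM. The abundant chaperone Hsp90b1 (269 against 308 FPKM) and the endolysosomal transporter Slc15a3 (110 against 100 FPKM) were not past the threshold. Of 15 kinases and factors downstream, 3 were higher and 2 were lower. Irf7, the interferon regulatory factor of endosomal signalling, was 156 against 105 FPKM, Pik3ap1, an adaptor that links Toll-like receptors to phosphoinositide 3-kinase, was 96.3 against 58.8 FPKM, and Ikbkg, a subunit of the IKK complex, was 6.74 against 4.25 FPKM. The lower calls of Irf5 (95.0 against 107 FPKM) and Ikbkb (19.6 against 22.6 FPKM) came from minor transcripts with 15.7% and 13.5% of the gene's FPKM in F4/80-negative cells. Nfkbia (222 against 236 FPKM) and Tab2 (53.0 against 38.0 FPKM) were not past the threshold.

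Of 10 genes of cytosolic DNA sensing, 3 were higher and 1 was lower. Ifi204 and Ifi203, of the interferon-inducible p200 family, were 121 against 77.3 FPKM and 32.3 against 19.9 FPKM, while Ifi205 of the same family was lower at 44.0 against 72.2 FPKM. Zbp1, a sensor of Z-form nucleic acid, was called higher at 57.5 against 50.1 FPKM through 1 of its transcripts. Mb21d1, which encodes the DNA sensor cGAS, was 6.24 against 5.43 FPKM, with a minor noncoding transcript lower and the sum against it. Samhd1 (171 against 133 FPKM) and Trex1 (83.6 against 76.6 FPKM) were not past the threshold. Of 9 helpers of RNA sensing, 2 were higher and none was lower, and the higher genes were the oligoadenylate synthetases Oas3 (21.2 against 11.9 FPKM) and Oas1a (60.3 against 39.0 FPKM). Trim25 (65.5 against 77.3 FPKM) and Zc3hav1 (36.6 against 39.0 FPKM) were not past the threshold. They were the 2 helpers with ratios below 1, and 7 had ratios above 1.

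Among 17 tested partners of NOD-like receptors and inflammasomes, 3 were higher and 2 were lower. Nek7, a kinase that NLRP3 needs, was 33.5 against 20.7 FPKM, Il18 37.2 against 23.1 FPKM and Nlrp1a 3.18 against 1.66 FPKM. The other substrate of caspase 1, Il1b, was lower at 761 against 1178 FPKM. Malt1, the protease of the CARD9 and BCL10 complex, was 2.74-fold lower at 11.5 against 31.6 FPKM. Txnip (182 against 141 FPKM) and Pstpip1 (63.1 against 67.3 FPKM) were not past the threshold, nor were Gsdmd, the pore protein cut by caspases 1 and 11 (54.6 against 61.6 FPKM), and Card9 (13.7 against 20.7 FPKM).

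**Figure D4:**
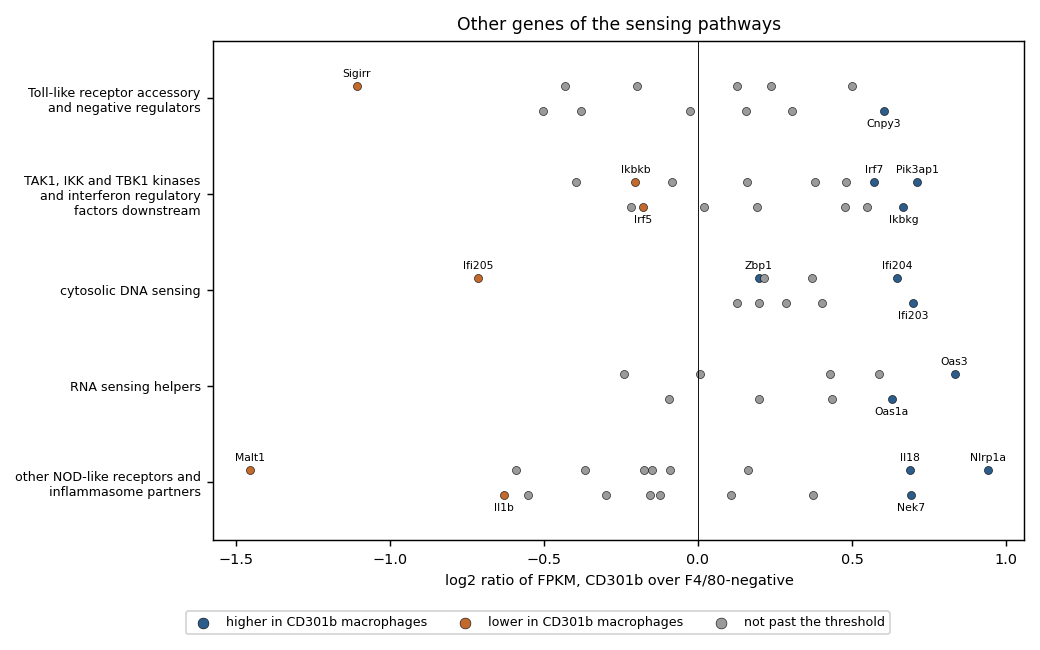
Log2 ratio of summed FPKM (CD301b macrophages over F4/80-negative cells) for the tested genes of 5 pathway lists outside the 46, coloured by call and labelled where called. Points are shifted vertically only to keep them apart. Nlrp1a is farthest to the right at a ratio of 1.92 and Malt1 farthest to the left.

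Markers of macrophages and of other cell types were read in the same 2 populations. All 7 macrophage markers reported were higher in CD301b macrophages, with a summed level of 6593 against 2068 FPKM and ratios from 2.14 (Fcgr1) to 3.69 (Adgre1), a range that holds 6 of the 9 higher Toll-like receptors. Of 8 dendritic cell markers 6 were lower (summed level 57.3 against 231 FPKM), and of 6 mast cell markers 5 were lower (19.7 against 56.2 FPKM). Of 7 neutrophil markers 3 were lower and 1 was higher, but 4 had ratios above 1. Their summed level was 2137 against 3855 FPKM, and without S100a8 and S100a9 it was 107 against 105 FPKM. The lower call of Csf3r (68.1 against 71.3 FPKM) came from a noncoding transcript with 10.8% of its FPKM in F4/80-negative cells. No marker of these lists was listed at 0 in either population. The T cell markers Cd3d, Cd3e, Cd3g and Cd8a were between 0.186 and 1.49 FPKM in both populations, and the B cell markers Ms4a1 and Cd79a were under 1 FPKM, whereas Cd4 (18.6 against 4.92 FPKM) and Cd79b (18.0 against 5.88 FPKM) were higher in CD301b macrophages. All 4 natural killer cell markers were under 1 FPKM. No marker of fibroblasts (summed level 2729 against 3725 FPKM), keratinocytes (128 against 158 FPKM) or endothelium (44.9 against 47.6 FPKM) was past the threshold. In sorted bulk cells, fewer cells of a type and less RNA per cell cannot be told apart, and the part of these cell types in the differences of the sensor genes was not tested.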

How the data were processed

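RNA of 2 libraries of CD301b macrophages and 2 of F4/80-negative immune cells was sequenced after a TruSeq mRNA preparation, per the labels' protocols. Alignment with TopHat2 2.0.2, testing with Cuffdiff 2.0.2 and the build mm9 are named in the submitters' processing notes. The loci of all 46 genes overlapped their RefSeq genes on GRCm38, the build of every position given. The authors deposited 1 FPKM per transcript and population and an unadjusted p-value, with a lower limit of 5e-05. The counting settings, the use of strand and the way libraries were combined are items not given in the sources used here. Reads from a gene and its antisense partner may therefore be mixed. Adjustment of the p-values over the 16921 tested transcripts gave the 2408 calls that the authors deposited. Symbols turned into dates (25 symbols) were restored through accessions.

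The 46 genes, their role groups, the 5 pathway lists and the markers were chosen with earlier results of these data known. All members at 1 FPKM or more, every called pathway gene and up to 2 abundant uncalled genes of each pathway list were named. Gsdmd, Card9 and Mb21d1 were added after their values were seen. Some genes of the pathway and marker lists are not reported here and were left out of the counts of those lists. Symbols not found were Lrrc33, Tlr10, Nlrc2, Ly6g and Trac. Shared words, with a word length of 50 bases, were computed from the longest protein-coding GENCODE M21 transcript of each of the 46 genes. That transcript can differ from the transcript model that was measured. Shared exon bases were computed from all GENCODE M21 exons of a gene. Python 3.11.15, pandas 2.3.3, numpy 2.4.6 and matplotlib 3.10.9 were used.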

Additional observations from a re-analysis of the deposited data

How the results depend on the processing

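At an adjusted p of at most 0.01 (the authors' deposited Cuffdiff table), 13 of the 46 genes were higher and 2 lower, and over all tested genes 848 were higher and 461 lower. The genes that lost their call there were Unc93b1, Irak1, Irak2, Irak4, Nlrc3, Nlrc4, Nlrx1, Pycard and Ddx58. Across the other alternatives the higher count was 19 to 21 and the lower count 3 or 4. Correcting for the number of transcripts within a gene, with adjustment over the 13039 tested genes, ended the calls of Unc93b1 and Irak1. Aim2, which has 1 transcript, became lower there through the adjustment over genes in place of transcripts. A minimum fold of 1.5 ended the calls of Irak1 and Ddx58. Under every alternative run, 15 genes kept their call: the 9 Toll-like receptors, Cd180, Ly86, Ifih1, Dhx58, Nod2 and Ripk2. They are the same 15 genes that were called at the stricter threshold. Median scaling altered only the direction of the sum and left the p-values as they were, so dependence of the calls on scaling was not tested. For the 31 genes with 1 transcript, letting the most abundant transcript decide could change nothing. The median log2 fold of the 46 genes was 0.44 with a pseudocount of 0.1 FPKM, 0.30 with 5 FPKM, 0.43 with members at 1 FPKM or more, 0.32 with both populations scaled to the same median and 0.46 with the most abundant transcript alone. Traf6 turned direction with its most abundant transcript (ratio 0.869) and with median scaling (0.974), as did Naip5 with median scaling (0.982), and neither was called. The cause of these changes was not tested beyond the construction of each alternative. No paired analysis was possible because the deposited columns carry no single libraries, and for the same reason no library could be left out.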
